A study of Mus musculus with 8 samples.

Results

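Shank, Homer and Dlgap proteins form the deeper layers of the postsynaptic density, and their 10 genes (Shank1 to Shank3, Homer1 to Homer3 and Dlgap1 to Dlgap4) were followed in hippocampal RNA from control and SAP97-cKO mice. The genes were picked by symbol as members of the 3 families, with earlier results of these data known, from the 25834 genes of the count table. All 10 passed the filter on low counts that left 16251 genes for testing. SAP97 is the protein of Dlg1, a member of the Dlg family of membrane-associated guanylate kinases.

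The data are RNA-seq counts from 8 male hippocampi, 4 control and 4 SAP97-cKO, with 1 library per mouse. SAP97-cKO mice were Nestin-cre+/-; SAP97fl/fl, with Cre from a line on a C57Bl/6 background. The Nestin promoter is active in neural progenitors, so neurons as well as the astrocytes and oligodendrocytes that arise from these progenitors can lose the gene. Controls were littermates with Cre alone, with floxed alleles alone or wild-type, and neither the genotype of each control library nor the age of the sequenced mice is stated in the labels or methods. Libraries held 37388177 to 37426572 counts, since the authors brought all libraries to 1 depth by resampling, and the 10 genes had at least 1337 counts in every library. The replicates are separate animals.

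At an excitatory synapse the Dlg proteins lie next to the membrane, where they hold receptors and adhesion molecules. Dlgap proteins (also called GKAP or SAPAP) bind the guanylate kinase domain of the Dlg proteins, and their C-terminal tail is held by the PDZ domain of a Shank protein. Shank proteins multimerize and bind Homer, and long Homer proteins form tetramers that link Shank to metabotropic glutamate receptors and to inositol trisphosphate receptors.

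The tail by which Dlgap meets Shank is encoded at the end of the coding sequence, and it is shown here because it is the joint between the layers that these genes encode. The sequences are the last 45 coding bases before the stop codon, read from the GENCODE M21 transcripts on GRCm38 and printed 5′ to 3′ on the plus strand, with the final 12 bases (the last 4 codons) in capitals. They lie at chr17:70818187-70818231 for Dlgap1, chr8:14846661-14846705 for Dlgap2, chr4:127236321-127236365 for Dlgap3 and chr2:156762856-156762900 for Dlgap4.
Dlgap1: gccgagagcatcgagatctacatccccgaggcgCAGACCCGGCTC
Dlgap2: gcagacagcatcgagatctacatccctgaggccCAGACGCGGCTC
Dlgap3: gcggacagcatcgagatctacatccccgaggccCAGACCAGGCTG
Dlgap4: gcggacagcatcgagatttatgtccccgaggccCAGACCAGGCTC
Dlgap2 and Dlgap3 each shared 40 of the 45 bases with Dlgap1, and Dlgap4 shared 38. Within the capitals, Dlgap2 and Dlgap4 shared 11 of 12 bases with Dlgap1, and Dlgap3 shared 10. The bases that differ there leave the encoded amino acids the same, so the last 4 codons read alike in all 4 genes.

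The targeted gene was examined first. Dlg1 had 4129, 4551, 3984 and 4692 normalized counts in control replicates 1 to 4 and 2354, 3066, 2144 and 2009 in SAP97-cKO replicates 1 to 4 (counts scaled to a common library size). The 2 groups were well apart. Dlg1 fell to 55.2% of control (log2 fold change −0.86, SE 0.124, edgeR quasi-likelihood test, Benjamini-Hochberg adjusted p = 0.143). Dlg1 did not pass this threshold in fits without control replicate 2, SAP97-cKO replicate 3 or SAP97-cKO replicate 4. The count covers all exons of the gene and not only those removed by Cre.

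The libraries also differed in tissue content. Neuron markers and markers of hippocampal principal neurons were present in every library, and no gene of any marker list was at 0. CPM (counts scaled to the same library total) summed over 6 oligodendrocyte markers were 5462, 8115, 7438 and 8797 in control replicates 1 to 4 and 7720, 4524, 4656 and 4274 in SAP97-cKO replicates 1 to 4. Summed CPM of 7 meningeal fibroblast markers ranged from 104 to 155 in controls and from 58.2 to 115 in SAP97-cKO, and 4 of the 7 fell at FDR < 0.25, against 0.283% of all genes tested. The 7 choroid plexus markers ranged from 169 to 6758 in controls and from 97.4 to 2319 in SAP97-cKO. Thalamic (5 markers, 120 to 235 and 104 to 145) and cerebellar (5 markers, 154 to 416 and 180 to 249) signals were present in both groups. All 5 markers of each had negative log2 fold changes (medians −0.61 and −1.2), and 0 passed FDR < 0.25. Striatal signal (5 markers) was highest in SAP97-cKO replicate 2, at 56.7 CPM against 17.9 to 31.0 in the other libraries. Astrocyte (5 markers, 4625 to 5211 and 4868 to 6105) and microglia (5 markers, 240 to 308 and 242 to 302) signals overlapped between the groups. Of the 5 astrocyte markers 2 were higher at an unadjusted p under 0.05 by edgeR (4.73% of all genes tested were) and 0 were lower. These were Aqp4 (log2 fold change 0.43, no overlap between the groups) and Gfap (0.29), and 0 of the 5 passed FDR < 0.25. The remaining markers were Slc1a2 (0.11), Slc1a3 (0.02) and Aldh1l1 (−0.06), and the median over the 5 was 0.11. In bulk tissue, fewer cells of a type and less RNA per cell cannot be told apart.

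No scaffold gene passed FDR < 0.25 in either direction, with adjusted p-values from 0.268 for Dlgap3 to 0.787 for Homer1 (edgeR, Benjamini-Hochberg over 16251 genes). Over all genes, 2 were higher at this threshold (0.0123%) and 46 were lower (0.283%). At an unadjusted p under 0.05, 7 of the 10 scaffold genes were higher in SAP97-cKO hippocampi and 0 were lower, where 4.73% of all genes tested were higher and 7.01% lower. These 7 were the 3 Shank genes and the 4 Dlgap genes, and 0 of the 3 Homer genes were among them. In 4 of the 10 genes every SAP97-cKO library was above every control library, against 2.78% of all genes tested. By DESeq2, a second count test, 5 of the 10 passed FDR < 0.25, all higher, against 2.91% of the 15293 genes to which it gave an adjusted p. In edgeR fits with 1 library left out, 6 of the 10 passed without control replicate 1 (6 of 715 higher genes in all), 5 passed without SAP97-cKO replicate 1 (5 of 261), and 0 passed without any other library. The median log2 fold change was 0.23 over the 10 genes and −0.01 over all genes tested.

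**Figure D1:**
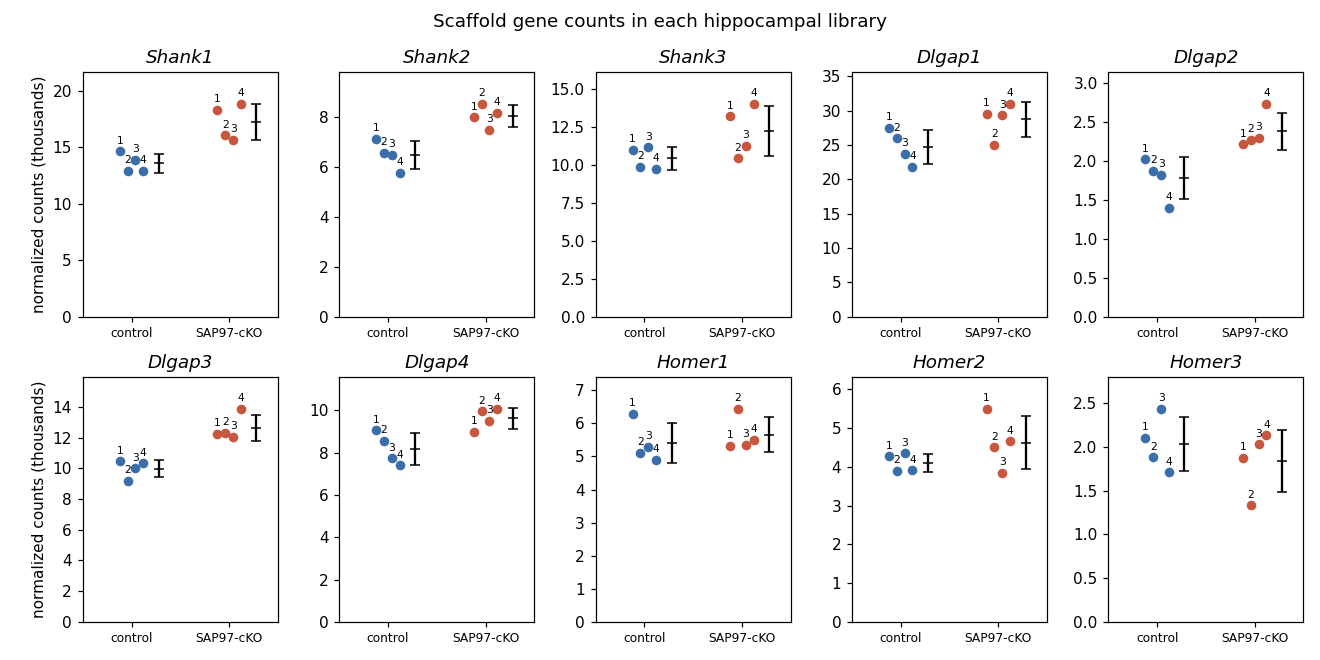
Normalized counts (in units of 1000, vertical axis from 0) of each scaffold gene in the 4 control (blue) and 4 SAP97-cKO (red) libraries, with replicate numbers above the points and mean ± SD as bars. The groups do not overlap for Shank1, Shank2, Dlgap2 and Dlgap3, and they overlap for the other 6 genes.

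The Shank genes encode the large platforms that join Dlgap to Homer and to the actin cytoskeleton. Shank1 (chr7:44310253-44360572, plus strand, GRCm38) had 14627, 12928, 13887 and 12896 normalized counts in control replicates 1 to 4 and 18306, 16037, 15620 and 18834 in SAP97-cKO replicates 1 to 4. The lowest SAP97-cKO library was above the highest control library. The means were 13584 ± 833 in controls and 17199 ± 1606 in SAP97-cKO (SD, n = 4 each), which is 127% of control. The log2 fold change of Shank1 was 0.34 (95% interval 0.16 to 0.52) with an adjusted p of 0.316 by edgeR with Benjamini-Hochberg adjustment, rank 103 of all genes tested by p. The exact two-sided permutation test gave p = 0.0286, the smallest that 70 assignments of 4 against 4 libraries allow.

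Shank2, which lies on the same chromosome (chr7:144001928-144424494, plus strand), had 7110, 6555, 6462 and 5760 normalized counts in control replicates 1 to 4 and 7960, 8509, 7459 and 8147 in SAP97-cKO replicates 1 to 4. Here too the groups did not overlap. Mean counts of Shank2 were 6472 ± 554 and 8019 ± 437 (SD, n = 4 each), a log2 fold change of 0.31 (95% interval 0.14 to 0.48; edgeR adjusted p = 0.316; exact permutation p = 0.0286).

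Shank3 (chr15:89499623-89560261, plus strand), the member whose human counterpart is deleted in Phelan-McDermid syndrome, had 11008, 9869, 11174 and 9740 normalized counts in control replicates 1 to 4 and 13212, 10450, 11279 and 14039 in SAP97-cKO replicates 1 to 4. SAP97-cKO replicate 2 lay inside the control range and replicate 3 just above it. Shank3 had a log2 fold change of 0.23 (95% interval 0.01 to 0.45; edgeR adjusted p = 0.417; exact permutation p = 0.114).

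The Dlgap genes encode the linkers between the Dlg and Shank layers. Dlgap3 (chr4:127169204-127237022, plus strand) had the smallest p of the 10 genes. It had 10454, 9166, 10008 and 10317 normalized counts in control replicates 1 to 4 and 12230, 12303, 12064 and 13862 in SAP97-cKO replicates 1 to 4. The groups were apart, and each group was narrow except for the high SAP97-cKO replicate 4. The means of Dlgap3 were 9986 ± 578 and 12615 ± 838 (SD, n = 4 each), or 126% of control. Its log2 fold change was 0.34 (95% interval 0.18 to 0.50) with an adjusted p of 0.268 by edgeR with Benjamini-Hochberg adjustment, and an exact permutation p of 0.0286.

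Dlgap2 (chr8:14095865-14847680, plus strand) had the largest fold change of the 10 genes and a lower count than the other Dlgap genes. It had 2021, 1868, 1820 and 1399 normalized counts in control replicates 1 to 4 and 2212, 2267, 2297 and 2732 in SAP97-cKO replicates 1 to 4. The groups did not overlap, and replicate 4 was the extreme library in both of them. Dlgap2 had a log2 fold change of 0.42 (95% interval 0.17 to 0.67; edgeR adjusted p = 0.316; exact permutation p = 0.0286), from 1777 ± 266 to 2377 ± 239 (SD, n = 4 each).

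Dlgap4 (chr2:156613705-156764363, plus strand) had 9046, 8555, 7737 and 7405 normalized counts in control replicates 1 to 4 and 8980, 9952, 9488 and 10059 in SAP97-cKO replicates 1 to 4. Only SAP97-cKO replicate 1 and control replicate 1 overlapped, by a narrow margin. The log2 fold change of Dlgap4 was 0.23 (95% interval 0.06 to 0.41; edgeR adjusted p = 0.352; exact permutation p = 0.0571).

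Dlgap1 (chr17:69969073-70821413, plus strand), the longest of the 10 genes, had 27492, 26009, 23755 and 21791 normalized counts in control replicates 1 to 4 and 29551, 25027, 29348 and 31019 in SAP97-cKO replicates 1 to 4. SAP97-cKO replicate 2 fell inside the control range and the other 3 lay above it. For Dlgap1 the log2 fold change was 0.21 (95% interval 0.0018 to 0.43; edgeR adjusted p = 0.422; exact permutation p = 0.0857). Dlgap5, a mitotic spindle gene that shares the family name, is not a postsynaptic scaffold and had only 4 to 15 counts per library.

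The Homer genes encode adaptors with an EVH1 domain that binds a proline-rich motif in Shank and in their receptor partners. Homer1 (chr13:93299635-93405129, plus strand) had 6293, 5112, 5302 and 4906 normalized counts in control replicates 1 to 4 and 5323, 6436, 5358 and 5495 in SAP97-cKO replicates 1 to 4. The groups were interleaved, with 1 library high in each. The log2 fold change of Homer1 was 0.07 (95% interval −0.14 to 0.27; edgeR adjusted p = 0.787; exact permutation p = 0.457).

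Homer1 makes long scaffolding proteins and a short, activity-induced form that lacks the coiled coil and uncouples the long ones. GENCODE M21 lists 12 Homer1 transcripts, 11 of them coding with 540 to 1110 coding bases, and the gene count merges them, so the forms cannot be told apart. The 6 immediate early genes set beside it (Fos, Arc, Egr1, Junb, Npas4 and Nr4a1) all had positive log2 fold changes, with a median of 0.25. Of these, 0 passed FDR < 0.25 and 0 were higher at an unadjusted p under 0.05 by edgeR (4.73% of all genes tested were). Their summed CPM ranged from 204 to 293 in controls and was 221, 406, 289 and 290 in SAP97-cKO replicates 1 to 4. Only SAP97-cKO replicate 2 lay above the control range. Arc, which encodes a dendritic protein of plasticity, was at 117% of control (edgeR adjusted p = 0.657), and Egr1, a transcription factor, was at 120% (edgeR adjusted p = 0.501). SAP97-cKO replicate 2, which had the highest Homer1 count of the 8 libraries, also had the highest Arc (4708) and Egr1 (4931) counts. The part of these genes in the Homer1 count was not tested.

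Homer2 (chr7:81600481-81707527, minus strand) had 4267, 3894, 4346 and 3908 normalized counts in control replicates 1 to 4 and 5490, 4501, 3839 and 4659 in SAP97-cKO replicates 1 to 4. SAP97-cKO replicate 3 was below every control library and the other 3 were above them. Homer2 had a log2 fold change of 0.17 (95% interval −0.05 to 0.39; edgeR adjusted p = 0.509; exact permutation p = 0.2).

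Homer3 (chr8:70282827-70294361, plus strand) was the only member with a negative fold change. It had 2106, 1882, 2435 and 1712 normalized counts in control replicates 1 to 4 and 1876, 1331, 2030 and 2134 in SAP97-cKO replicates 1 to 4. SAP97-cKO replicate 2 was lowest and control replicate 3 highest, with the other libraries between. The log2 fold change of Homer3 was −0.14 (95% interval −0.48 to 0.19; edgeR adjusted p = 0.7; exact permutation p = 0.514). It was −0.014 without SAP97-cKO replicate 2, and ranged from −0.22 to −0.014 with each library left out. Ddx49, an RNA helicase gene on the opposite strand, shares 874 exon bases with Homer3, 25.4% of its exon bases. No source states if strand entered the counting, so reads of this overlap could belong to either gene. The other members shared at most 4.16% of their exon bases with another gene.

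Counts summed by family put the families side by side. The Shank sum was 30504 ± 1986 normalized counts in controls and 37463 ± 3288 in SAP97-cKO (SD, n = 4 each), 123% of control. The Dlgap sum was 44711 ± 3448 and 53348 ± 3331, 119% of control, and the Homer sum was 11541 ± 1003 and 12118 ± 625, 105% of control. The groups did not overlap for Shank and Dlgap and overlapped for Homer.

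The ratio of one family to another within a library does not depend on how libraries are scaled. The ratio of Shank to Homer counts was 2.59, 2.70, 2.61 and 2.70 in control replicates 1 to 4 and 3.11, 2.85, 3.06 and 3.34 in SAP97-cKO replicates 1 to 4. The 2 groups did not overlap in this ratio. The ratio of Dlgap to Homer counts was 3.59 to 4.19 in controls and 4.04 to 4.74 in SAP97-cKO, and here the groups overlapped. These ratios were formed after the values of the single genes had been seen, so they restate those values and were not tested.

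The libraries that were high or low differed in part between the scaffold genes. Control replicate 4 had the lowest count of the 8 libraries for 7 of the 10 genes, and SAP97-cKO replicate 4 had the highest for 6. Median deviations of the 10 genes from their own means were −0.02, −0.13, −0.14 and −0.23 (log2) in control replicates 1 to 4 and 0.14, 0.10, 0.07 and 0.20 in SAP97-cKO replicates 1 to 4. By this measure control replicate 1 was the control library nearest to the SAP97-cKO libraries. The 10 genes took 0.22 to 0.252% of all counts in controls and 0.26 to 0.286% in SAP97-cKO.

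**Figure D2:**
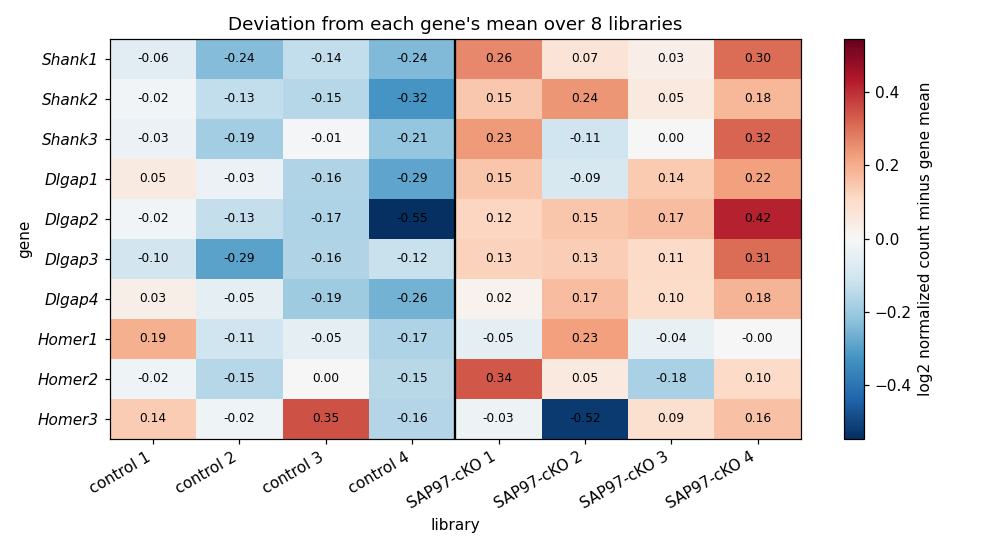
Log2 deviation of each scaffold gene (rows) from its mean over the 8 libraries (columns), printed in each cell and colored from blue (below) to red (above). The lowest values of the Dlgap2 and Shank2 rows are in control replicate 4, and Homer3 departs from the other genes in control replicate 3 and SAP97-cKO replicate 2.

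Neuron and oligodendrocyte markers differed in level between libraries, and their summed CPM overlapped between the groups. The summed CPM of the 5 neuron markers (Rbfox3, Snap25, Syt1, Map2 and Slc17a7) was 7347, 6972, 6634 and 6552 in control replicates 1 to 4 and 7058, 7701, 7438 and 7917 in SAP97-cKO replicates 1 to 4. The 5 markers had a median log2 fold change of 0.19, 3 of them were higher at an unadjusted p under 0.05 (4.73% of all genes tested were) and 0 passed FDR < 0.25. Markers of hippocampal principal neurons (6 genes) had a median log2 fold change of 0.11, with summed CPM of 756 to 1095 in controls and 792 to 1208 in SAP97-cKO.

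Scaled by the neuron markers instead of by all genes, the median of all genes moved to −0.19 (log2), and the log2 fold change of every scaffold gene was lower than with scaling by all genes. The Shank genes, the Dlgap genes and Homer2 lay closer to 0 on this scale, and Homer1 and Homer3 lay farther from it. On this scale 1 of the 10 genes had an unadjusted p under 0.05. The log2 fold changes were 0.25 for Dlgap2, 0.17 for Shank1, 0.16 for Dlgap3 and 0.14 for Shank2. They were 0.06 for Dlgap4, 0.06 for Shank3, 0.05 for Dlgap1, 0.0012 for Homer2, −0.10 for Homer1 and −0.32 for Homer3. By this scaling 5 genes passed FDR < 0.25 in edgeR, Shank1, Shank2, Dlgap2 and Dlgap3 higher and Homer3 lower, while 128 of all genes were higher and 6407 lower at that threshold.

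Oligodendrocyte markers were lower in SAP97-cKO, with a median log2 fold change of −0.47 over 6 genes, of which 4 were lower at an unadjusted p under 0.05 (7.01% of all genes tested were) and 0 passed FDR < 0.25. SAP97-cKO replicate 1 was the exception, at 7720 CPM inside the control range, and control replicate 1 was the lowest control, at 5462 CPM. In SAP97-cKO replicate 1, 7 of the 10 scaffold genes were above their own median over the 8 libraries, against 7, 9 and 10 in SAP97-cKO replicates 2 to 4. In SAP97-cKO replicate 1 Dlgap4 (8980), Homer1 (5323) and Homer3 (1876) were below control replicate 1 (9046, 6293 and 2106). The remaining scaffold genes were above it. With the oligodendrocyte marker level as a covariate, the log2 fold changes were 0.32 for Shank1, 0.24 for Shank2, 0.26 for Dlgap2 and 0.28 for Dlgap3, 3 of the 10 genes had an unadjusted p under 0.05, and 0 of all genes passed FDR < 0.25 in edgeR, while 697 had an unadjusted p under 0.05. In this fit Homer2 was at 0.25, Shank3 at 0.22, Dlgap1 at 0.16, Dlgap4 at 0.12, Homer1 at −0.07 and Homer3 at −0.20. Scaling by neuron markers and the covariate were chosen after seeing the data, and beyond these fits the part of neuron and oligodendrocyte content in the scaffold counts was not tested.

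**Figure D3:**
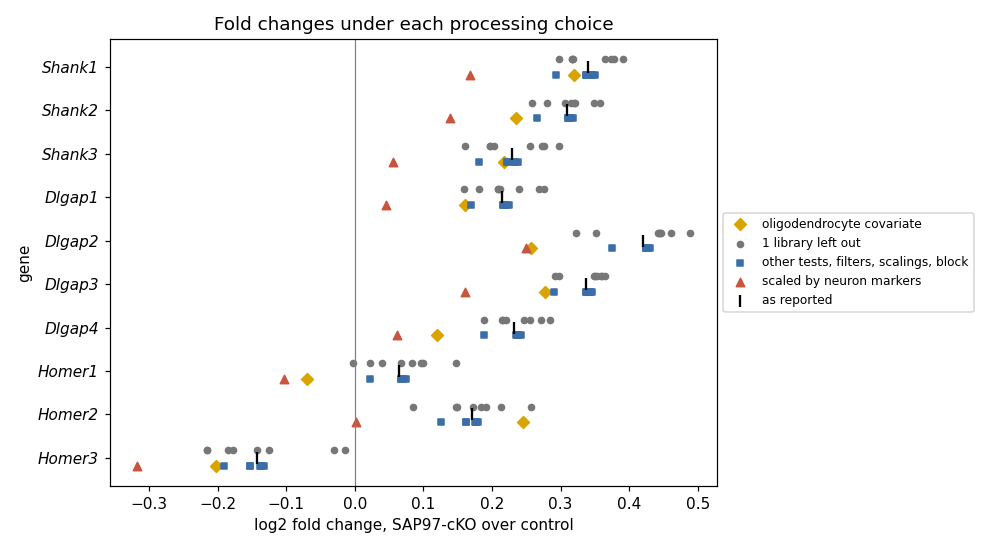
Log2 fold change (SAP97-cKO over control) of each scaffold gene as reported (black tick), with 1 library left out (grey), under other tests, filters, scalings and the replicate block (blue), with scaling by neuron markers (red) and with an oligodendrocyte covariate (yellow). The Shank and Dlgap genes stay above 0 in each of these fits, Homer3 stays below 0, and Homer1 crosses it.

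Levels can be compared between genes only per length. In controls Dlgap3 had the highest level, 59.1 ± 3.42 counts per exon kilobase, as CPM (SD, n = 4), followed by Dlgap1 (37 ± 3.75), Shank1 (34.5 ± 2.12), Shank3 (30.4 ± 2.18), Dlgap4 (25.9 ± 2.37), Shank2 (16.1 ± 1.37), Homer3 (15.8 ± 2.43), Homer1 (12.1 ± 1.37), Homer2 (8.69 ± 0.501) and Dlgap2 (7.72 ± 1.16). The control ranges of Dlgap1 and Shank1, Shank3 and Dlgap4, Shank2 and Homer3, Homer3 and Homer1, and Homer2 and Dlgap2 overlapped, so the order within these pairs is not set. By exon length Dlgap3 stood clear of Dlgap1, Dlgap4 of Shank2 and Homer1 of Homer2. Shank1 was barely apart from Shank3 in controls (lowest 32.8 against highest 32.5) and overlapped it in SAP97-cKO (39.7 against 40.8). In SAP97-cKO libraries Dlgap3 was again first, at 74.6 ± 4.95, and Homer2 (9.79 ± 1.44) and Dlgap2 (10.3 ± 1.04) were again the lowest. The length matters for genes with many alternative exons: with the longest transcript in place of all exons, Dlgap1 was first in controls at 92.3 and Dlgap3 second at 63.5.

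**Figure D4:**
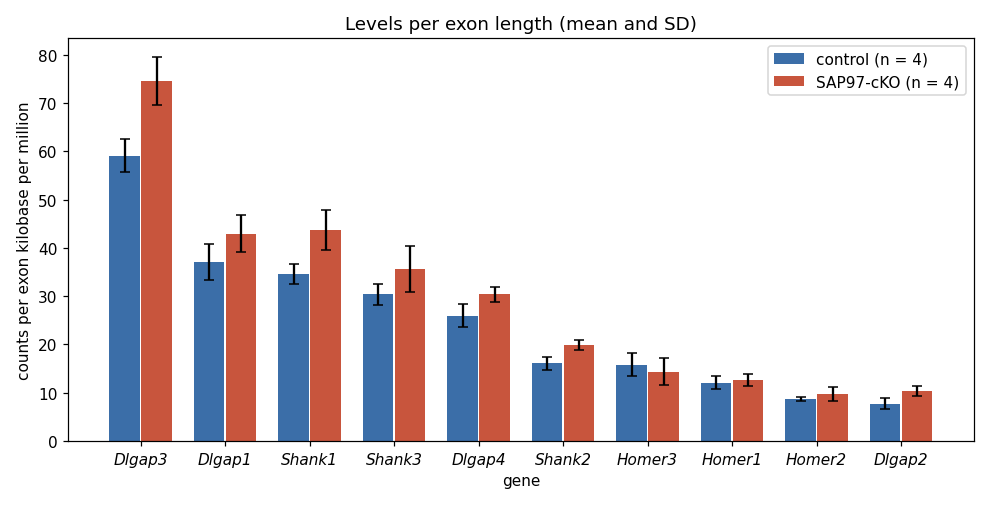
Level of each scaffold gene per exon length (CPM per exon kilobase, vertical axis from 0) in control (blue) and SAP97-cKO (red) hippocampi, as mean and SD of 4 libraries each. Dlgap3 was highest in both groups, and Homer2 and Dlgap2 were lowest in both.

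The proteins that bind or lie beside these scaffolds were followed as a list of 43 genes. Of these 1, Dlg1, fell at FDR < 0.25 and 0 rose, while 15 were higher at an unadjusted p under 0.05 and 39 had a positive log2 fold change, with a median of 0.19. Of all 16251 genes tested, 4.73% were higher at that p, 7677 had a positive log2 fold change and the median was −0.01. Among the 12 Shank binders, 4 were higher at an unadjusted p under 0.05 and the median was 0.17. Among the 13 Homer ligands, which include the metabotropic glutamate receptor gene Grm5, 2 were higher by that measure and the median was 0.13. Among the 4 genes listed as Dlgap binders 1 was higher, Begain, which is known for binding PSD-95, and the median was 0.14. Among 10 other postsynaptic density genes 6 were higher, with a median of 0.25.

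The partners with the smallest p in the upward direction were Nlgn1, Begain and Agap2. Nlgn1, the adhesion molecule neuroligin 1, was at 124% of control (log2 fold change 0.31, SE 0.0732, edgeR adjusted p = 0.302). Begain, which binds the guanylate kinase domain of PSD-95, was at 120% (0.26, SE 0.0646, edgeR adjusted p = 0.316), and Agap2, the GTPase PIKE that binds Homer, was at 123% (0.30, SE 0.0845, edgeR adjusted p = 0.331). The groups did not overlap in any of the 3, which were picked by p. Over the whole list every SAP97-cKO library was above every control library for 8 of the 43 partners, against 2.78% of all genes tested.

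The remaining Dlg genes, named as the direct partners of Dlgap after their values were seen, had log2 fold changes between those of Homer1 and Dlgap4. Dlg4, which encodes PSD-95, had 26782 ± 1361 normalized counts in controls and 30976 ± 1626 in SAP97-cKO (SD, n = 4 each; log2 fold change 0.21; edgeR adjusted p = 0.358), with no overlap between the groups. Dlg2, which encodes PSD-93, was at 114% of control (edgeR adjusted p = 0.376) and Dlg3, which encodes SAP102, at 111% (edgeR adjusted p = 0.518), and both overlapped.

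The genes whose pattern over the 8 libraries was closest to the most variable member of each family were found by the root mean square (RMS) difference of log2 CPM, each gene centred on its own mean. For Shank1 (SD 0.209 on this scale) they included Dok6 (RMS difference 0.0377) and Adgrb3 (0.0572), which encodes an adhesion receptor. For Dlgap2 (SD 0.286) they were Pcdha12 (0.0616), a clustered protocadherin gene, Zdhhc23 (0.0632), a palmitoyltransferase gene, and Astn1 (0.0654). For Homer3 (SD 0.257) they were Gm6560 (0.0734), Rasd1 (0.0888) and Stard5 (0.0889), so its nearest genes were less close in proportion to its spread. These were picked from all genes tested and are a description.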

How the data were processed

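RNA was measured in 4 control and 4 SAP97-cKO hippocampi, and groups and replicate numbers were taken from the sample titles. Per the methods and the submitters' processing notes, the authors used STAR 2.5.3a for alignment, with mm10 (GRCm38.p5) as the genome. Their PORT pipeline then removed ribosomal and mitochondrial reads, resampled the libraries to a common depth and counted reads on Ensembl genes. The deposited values are whole-number counts per gene. The table's own fold changes, p-values and q-values of the authors' comparison were not used.

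Genes with low counts were removed with filterByExpr (minimum count 10, minimum total 15; 9583 genes removed), libraries were scaled by TMM (factors 0.964 to 1.03), and genotype was tested with edgeR 4.0.16 (R 4.3.3) with Benjamini-Hochberg adjustment over 16251 genes and the study's threshold of FDR < 0.25. The SE is the size of the log2 fold change over the square root of F. Limma-voom (3.58.1) and DESeq2 (1.42.0) were alternatives. The edgeR step was tested on simulated data. No 2 libraries were repeats of each other (chi-square of 9.62 or more per gene for each pair). Exon lengths and coordinates came from GENCODE M21 (GRCm38). Promoters and proteins were not used here.

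Members, lists and rules were chosen with earlier results of these data known. The text names all 10 members, Dlg1, partners past the threshold or else the 3 with the smallest p in that direction, the 3 nearest genes to the most variable member of each family, and the 2 most abundant immediate early genes, except for items that are not reported here.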

Additional observations from a re-analysis of the deposited data

Results flagged for a closer look

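A library was picked out where its gap to the nearest of the 4 libraries of its group took up nearly the whole range of that group. This was checked in 38 groups of 4 libraries, over 19 genes, and 5 were picked out, where chance alone picks out about 1 in 20. Homer1 in SAP97-cKO replicate 2 had 6436 normalized counts against 5323 to 5495 in the other 3. Dlgap2 in SAP97-cKO replicate 4 had 2732 against 2212 to 2297, Dlgap3 in the same library had 13862 against 12064 to 12303, and Begain there had 4061 against 3816 to 3826. Agap2 in control replicate 1 had 47131 against 42353 to 43160 in the other controls. Without SAP97-cKO replicate 4 the log2 fold change was 0.35 for Dlgap2 and 0.29 for Dlgap3, and without SAP97-cKO replicate 2 it was −0.0026 for Homer1.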

How the results depend on the processing

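The number of scaffold genes past FDR < 0.25, 0 as reported, was 5 by DESeq2 (beside 445 higher and 588 lower genes in all). It was 1 (Dlgap3, adjusted p = 0.231 by edgeR) without the filter on low counts (beside 15 and 89), and 5 with scaling by neuron markers (beside 128 and 6407). It ranged from 0 to 6 when each library was left out: leaving out control replicate 1 gave 6 (Shank1, Shank2 and the 4 Dlgap genes, beside 715 higher and 960 lower genes in all), leaving out SAP97-cKO replicate 1 gave 5 (Shank1, Shank2, Dlgap2, Dlgap3 and Dlgap4, beside 261 and 450), and leaving out any other gave 0. It was also 0 by limma-voom (smallest adjusted p 0.266), with DESeq2 size factors, with no scaling, with a minimum of 10 counts in every library, with the oligodendrocyte covariate and at FDR < 0.05. The number at an unadjusted p under 0.05, 7 as reported, was 1 with scaling by neuron markers, 3 with the oligodendrocyte covariate and 5 to 7 otherwise. The number of partners past FDR < 0.25 was 1 of 43 as reported, beside 48 of all 16251 genes. It was 14 by DESeq2 (beside 1033 of 15293 genes) and 4 with scaling by neuron markers (beside 6535 of 16251). It was 0 with the oligodendrocyte covariate and at FDR < 0.05, where 0 of all genes passed. With each library left out it was 0 to 17. Leaving out control replicate 1 gave 17 (beside 1675 of 16469 genes) and leaving out SAP97-cKO replicate 1 gave 3 (beside 711 of 16474). Leaving out control replicate 2, SAP97-cKO replicate 3 or SAP97-cKO replicate 4 gave 0, and 0 of all genes passed in these fits. Homer1 reversed to −0.10 with scaling by neuron markers, to −0.0698 with the oligodendrocyte covariate and to −0.0026 without SAP97-cKO replicate 2 (−0.0026 to 0.15 with each library left out). The causes were not tested. Of 170 fold changes of the 10 genes under alternatives, 144 kept their direction and side of the threshold, 23 kept their direction and passed it, and 3 reversed, all of Homer1. Alternatives for neuron markers and oligodendrocytes were chosen after seeing the data, as were those on partners other than limma-voom and DESeq2. Levels per kilobase were higher for all 10 genes with the longest transcript as length, as a length shorter than all exons must make them. What could change was the order of the genes, and it did in part.

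With the replicate number as a block, 1 scaffold gene passed (Dlgap3, edgeR adjusted p = 0.228), beside 22 higher and 234 lower genes in all. Deviations from the group means correlated between same-numbered libraries at −0.08, 0.21, 0.09 and 0.26. Control replicate 1 and SAP97-cKO replicates 1, 3 and 4 correlated best with a library of another number. Control replicates 2, 3 and 4 and SAP97-cKO replicate 2 correlated best with the library of their own number. The labels name nothing but the number that such libraries share, and these few weak correlations cannot decide if they share more.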
